A study of Arabidopsis thaliana with 88 samples.

Results

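Roots of wild type Arabidopsis thaliana plants (accession Col-0) grown on soil were compared with roots of wild type plants grown on agar plates, in 12 of the 88 libraries of the series. The plants carried 2 (2x) or 4 (4x) chromosome sets, the 4x line being a neo-tetraploid derived from Col-0 with colchicine in an earlier study. Plate roots came from plants kept for 2 weeks in long days on agar-solidified Murashige and Skoog medium of reduced strength with 1% sucrose, and soil roots from plants kept for 5 weeks in short days on peat that was watered with diluted nutrient solution. Each medium had 3 libraries of 2x and 3 of 4x plants, so that 6 soil libraries stood against 6 plate libraries. A plate library pooled several plants, whereas a soil library came from 1 plant, whose roots were freed from the peat by swirling in water, water with hair conditioner and brief sonication before freezing. All plants of a medium were grown in the same experiment, so the p-values measure the spread between these plants and pools and not that between repeated experiments. Medium, age, day length, sucrose, the pooling of plants and the harvest changed together in this design and cannot be told apart. The sequencing pool is not named in the labels and cannot be told apart from the medium with certainty. The sample numbers place all 6 plate libraries and 2 soil libraries (replicate 1 of 2x and of 4x) in a first series and the other 4 soil libraries in a second, and it is only inferred that a series was sequenced together. "Soil" and "plate" below therefore name sets of libraries and not the action of the medium alone.

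A root takes up water and mineral ions through its epidermis, where hair cells widen the surface that meets the medium. Ions then cross the cortex to the endodermis, whose cells are sealed by the Casparian strip, a lignin band in the wall, and later by suberin lamellae, and they are loaded into the xylem for transport to the shoot. Older roots thicken by divisions in the vascular cambium. Root cells also make defence compounds such as glucosinolates, triterpenes and coumarins, and adjust ion transporters, oxygen-responsive genes and sugar-responsive genes to what surrounds them.

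Transcripts were sequenced from their 3′ ends, and the level of each gene is given as CPM, its counts scaled to the same total of assigned reads in every library, after scaling between libraries by the trimmed mean of M values (TMM). Between 7553358 and 10246410 reads were assigned per library, so that 3 counts, taken as the floor of detection, corresponded to 0.289 to 0.404 CPM. Libraries of the same medium had median Spearman correlations of 0.960 to 0.979 across genes, which are not independent points, and libraries of different media 0.791 to 0.868. Ribosomal RNA genes took 0.191 to 2.01% of the reads of plate libraries and 6.84 to 12.4% of those of soil libraries, and organelle genes took 0.659 to 1.97% and 1.36 to 2.30%. Without these genes the number of genes that differed was 8671 in place of 8807. The summed level of the shoot identity list was 38.4 to 60.05 CPM on plates and 29.9 to 66.9 CPM in soil. The leaf myrosinases TGG1 and TGG2 reached 12.5 and 10.96 CPM in soil 2x replicate 2 and 13.04 and 21.2 CPM in soil 4x replicate 3, against at most 1.26 CPM in the other 4 soil libraries and 0.308 CPM on plates. Without those 2 soil libraries, an alternative chosen after seeing the data, 8635 genes were called. Their part in the results was not tested beyond this.

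Nearly as many genes were called higher as lower, while more of the changes of 4-fold or more were towards lower levels in soil. Of 17959 genes tested, 8807 (49%) were called at an adjusted p under 0.05 (edgeR quasi-likelihood test, Benjamini-Hochberg) with a log2 fold change past 0.5 in either direction, 4461 of them (24.8%) higher and 4346 (24.2%) lower in soil roots. At 4-fold or more, 1295 genes (7.21%) were called, of which 388 genes (2.16%) were higher and 907 (5.05%) were lower. Which direction had more calls turned with the setting, for example to 4388 higher and 4416 lower with the size factors of DESeq2 in edgeR. In 6754 genes (37.6%) all 6 soil libraries lay apart from all 6 plate libraries. The counts given for gene lists are to be read against these shares of all genes. In 9 lists with more than 1 tested gene, the share of members called was at most 57.9%, near or below that of all genes. They are the lists of xylem secondary wall (23.1%), clock (47.1%), sulfur limitation and shoot identity (each 50%), Casparian strip (53.8%), abscisic acid and drought, jasmonate and heat shock genes (each 57.1%), and nitrogen uptake and assimilation (57.9%). The median log2 fold change over all genes was 0.04, where a log2 value of -2 stands for a 4-fold lower level. All fold changes below are log2 values of soil minus plate roots with their standard error, and levels are given as the range and the median of the 6 libraries of a medium. Within the first series of sample numbers alone, 7752 genes were called and 1330 of them differed 4-fold or more. Of 334 named genes, 302 stayed on the same side of the call there, 32 lost it and none turned direction. The soil libraries of that series also had the highest levels of the clock gene CCA1 among the soil plants, and the 2 cannot be told apart. Of 565 genes named or listed, 12 overlap another gene on the same strand in the RefSeq annotation and 128 one on the opposite strand, and whether the quantification used strand is not given in the sources used here, so the counts of such genes may hold reads of their neighbour.

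The gene with the steepest fall, AT5G38910, and a gene among the steepest rises, AT5G38940, both encode proteins of the RmlC-like cupin family and lie close together on chromosome 5. AT5G38910 ran from 71.7 to 154 CPM on plates (median 87.0) and from 0 to 0.108 CPM in soil (median 0), which is 2 counts in all 6 soil libraries. The ratio of its summed counts was 2542, with a 95% interval of 703 to 20994 for counting error. AT5G38940 ran the other way, from 0.206 to 1.03 CPM on plates (median 0.594) and from 48.8 to 160.0 CPM in soil (median 122.3), a log2 fold change of 7.50 ± 0.31. Another cupin gene, AT3G05950, rose likewise (7.79 ± 0.47), from 0.192 to 1.05 CPM on plates (median 0.413) and from 39.96 to 203 CPM in soil (median 112). Reads of such paralogues are shared out by the quantification, so the split between close relatives is less certain than their sum.

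The other genes with the largest rises included a transcription factor and several genes of unknown function. WRKY59 (AT2G21900), a WRKY transcription factor, rose by 7.33 ± 0.28, from 0.0962 to 1.05 CPM on plates (median 0.491) and from 39.4 to 132 CPM in soil (median 90.5). AT4G33720, which encodes a secreted protein of the pathogenesis-related 1 family, ran from 1.29 to 3.98 CPM on plates (median 2.64) and from 212 to 489 CPM in soil (median 372) (7.16 ± 0.29). AT4G39675, which has no named function in the annotation used, was the most abundant of these genes in soil, at 1322 to 2267 CPM (median 1519.8) against 14.2 to 23.56 CPM (median 15.7) on plates (6.50 ± 0.21). DIN11, a 2-oxoglutarate-dependent oxygenase named for its induction in darkness, rose by 6.24 ± 0.47. The receptor-like kinase-related AT5G41290, the DUF239 gene AT2G44220 and the uncharacterised AT1G54950 and AT1G67865 rose by 6.27 to 8.05. None of these 10 genes overlapped between the media, which the rule that picked them required.

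The largest falls included an oxidase, a microRNA locus and uncharacterised genes. AT1G26390, a berberine bridge enzyme-like oxidase, ran from 65.9 to 156 CPM on plates (median 131) and from 0 to 0.527 CPM in soil (median 0.242) (-8.85 ± 0.33). SAG13, a dehydrogenase named for its rise in senescing leaves, had 1326 counts over the plate libraries and 2 over the soil libraries, a ratio of 620 with a 95% counting interval of 171 to 5124. MIR163 (AT1G66725), the locus of the microRNA miR163, fell by 8.08 on the log2 scale, from 34.96 to 92.3 CPM on plates (median 50.5) and from 0 to 0.404 CPM in soil (median 0.235). These reads come from its polyadenylated transcript and not from the mature microRNA. AT3G57020, which encodes a calcium-dependent phosphotriesterase family protein, ran from 520.1 to 1029.8 CPM on plates (median 764) and from 2.59 to 8.21 CPM in soil (median 4.15) (-7.28 ± 0.30). The heme-binding protein gene SOUL-1 and the uncharacterised AT3G52740, AT1G22750 and AT5G57785 had log2 fold changes of -7.996 to -7.11, AT1G22750 sharing its strand with an overlapping gene, and chalcone synthase is described with the flavonoid genes.

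In absolute level the largest losses came from a few very abundant transcripts. AT1G07590, annotated as a tetratricopeptide repeat protein, ran from 38129 to 77387 CPM on plates (median 47574) and from 7392 to 12203 CPM in soil (median 9894) (-2.42 ± 0.21). It overlaps the metallothionein gene MT1A on the same strand in the annotation, so that the counts of these 2 genes cannot be told apart. MT1A itself fell (-3.24 ± 0.23) and its neighbour MT1C (AT1G07610) (-2.58 ± 0.22), from 5205 to 7401 CPM on plates (median 6484) and from 778 to 1779 CPM in soil (median 853). Metallothioneins are small cysteine-rich proteins that bind metal ions. AT4G23670, of a polyketide cyclase and lipid transport family, fell (-2.89 ± 0.21), from 5167 to 9224 CPM on plates (median 6791) and from 569.9 to 1281 CPM in soil (median 919). The mitochondrial rRNA gene ATMG00020 fell (-1.19 ± 0.19), with 1 of 6 soil libraries at 2078 CPM, well under the others. The largest absolute gains were in ribosomal RNA (the 18S genes AT3G41768 and AT2G01010, the 5.8S gene AT3G41979 and the plastid gene ATCG00950, 1.66 ± 0.35 to 4.601 ± 0.59) and in PRXR1 (AT4G21960), a class III peroxidase. The libraries were made with a 3′ mRNA kit, so reads of ribosomal RNA, ATMG00020 included, are no measure of its level in the root. PRXR1 ran from 2139 to 3233 CPM on plates (median 2801) and from 7283 to 9395 CPM in soil (median 8103), a rise of 1.57 ± 0.15.

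**Figure D1:**
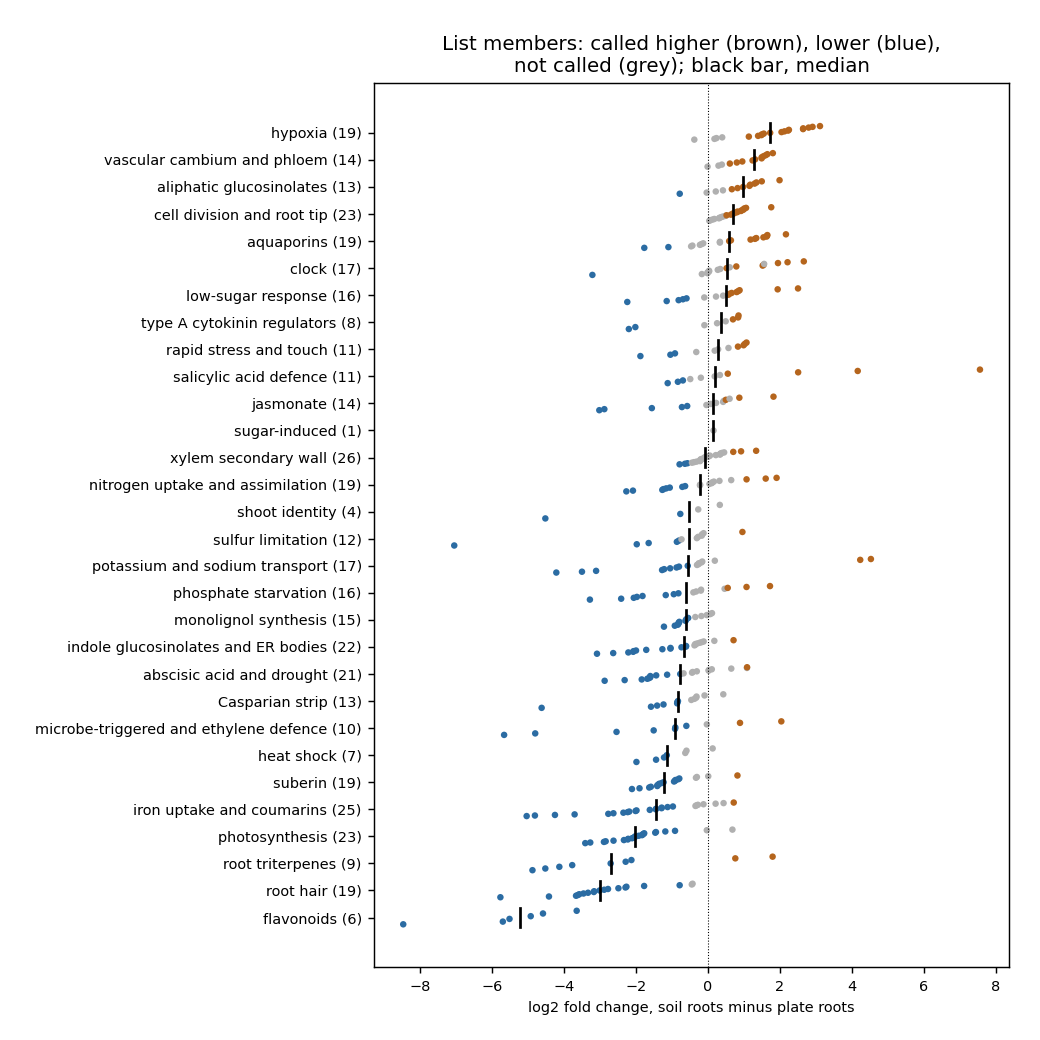
Log2 fold change of soil minus plate roots (x axis) for each tested member of 30 gene lists (y axis, number of tested members in brackets), from the fit to 12 wild type root libraries. Brown and blue points were called higher and lower, grey points were not called, and black bars mark list medians, which run from -5.22 for the flavonoid list to 1.73 for the hypoxia list.

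Root hair genes were lower in soil roots almost throughout. All 19 members of the list were tested, 17 fell, 15 of them 4-fold or more, none rose and 2 were not called, with a median log2 fold change of -3.01 against 0.04 over all genes and an edgeR adjusted p of at most 0.0095 among the members called. The summed level of the list was 1229 to 2910 CPM in plate roots (median 1968) and 237 to 385 CPM in soil roots (median 317). In 18 members no soil library reached a plate library. Fewer hair cells and less RNA of these genes per hair cell cannot be told apart in bulk roots, and the same holds for every cell type marker below. Root hairs are also fragile outgrowths, and soil roots were stirred and sonicated before freezing, the effect of which cannot be told apart from the medium.

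Transcription factors of hair fate and growth fell, and so did proteins of the hair wall. RHD6 (AT1G66470), a basic helix-loop-helix (bHLH) factor that starts hair formation, ran from 7.22 to 10.2 CPM on plates (median 8.07) and from 1.47 to 3.69 CPM in soil (median 2.42) (-1.77 ± 0.20). The bHLH factor RSL4 (AT1G27740), which drives hair elongation, fell (-3.01 ± 0.26), from 9.14 to 13.7 CPM on plates (median 10.2) and from 0.596 to 2.42 CPM in soil (median 1.23). RSL2, a relative of RSL4, fell (-2.29 ± 0.25). Of the wall genes, PRP1 (AT1G54970), a proline-rich wall protein, changed most (-5.77 ± 0.40), from 39.7 to 122.2 CPM on plates (median 80.1) and from 0.119 to 2.79 CPM in soil (median 1.58). Its relative PRP3 (AT3G62680) was the most abundant, from 241 to 653 CPM on plates (median 427) and from 13.2 to 30.2 CPM in soil (median 22.4) (-4.42 ± 0.28). The hair expansins EXPA7 (-3.33 ± 0.25) and EXPA18 (-3.46 ± 0.25), which loosen the wall, the extensin-like LRX1 (-3.61 ± 0.24) and the wall-remodelling enzyme XTH14 (-3.66 ± 0.29) fell to a similar extent, and in each of them every soil library was under every plate library. At the small end, the NADPH oxidase RBOHC, which makes the reactive oxygen of the hair tip, fell (-0.78 ± 0.24), with the call lost in 4x libraries alone and within the first series of sample numbers (-0.94). SCN1 (-0.43 ± 0.10), a regulator of small GTPases, and CSLD3 (-0.45 ± 0.11), a cellulose synthase-like protein, had adjusted p (edgeR) of 0.0014 and 0.0032 and missed the size that the call asks for.

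The sequence upstream of these genes was read from the RefSeq TAIR10.1 genome, because a cis element has been defined in promoters of hair genes and the members moved together. The 250 bases before the annotated start of each of the 19 genes were searched on both strands for the published consensus of the root hair element (RHE), in which 2 conserved blocks are separated by a gap of 3 or 4 bases. A match stood in 7 of 19 windows (36.8%), against 136 of 17426 windows of tested genes (0.78%) and 207 of 27443 of all annotated genes (0.75%). The element was described from genes of this kind, so that its presence here is a description and no test. The windows of PRP1, PRP3, EXPA7, LRX1, MRH6 and RHS13 follow, 5′ to 3′ on the strand of the gene and ending just before its start, with the match in capitals. EXPA18, the other gene with a match, has a window that overlaps another gene and is not shown. The windows lie at chr1:20504651-20504900 (+ strand), chr3:23182472-23182721 (+ strand), chr1:4276255-4276504 (+ strand), chr1:4069742-4069991 (+ strand), chr2:1131870-1132119 (+ strand) and chr4:993040-993289 (- strand) in that order.
PRP1: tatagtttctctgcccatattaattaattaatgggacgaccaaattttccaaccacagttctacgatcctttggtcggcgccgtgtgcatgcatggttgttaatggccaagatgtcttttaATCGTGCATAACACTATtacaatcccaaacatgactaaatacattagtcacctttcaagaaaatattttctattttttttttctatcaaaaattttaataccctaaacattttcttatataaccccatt
PRP3: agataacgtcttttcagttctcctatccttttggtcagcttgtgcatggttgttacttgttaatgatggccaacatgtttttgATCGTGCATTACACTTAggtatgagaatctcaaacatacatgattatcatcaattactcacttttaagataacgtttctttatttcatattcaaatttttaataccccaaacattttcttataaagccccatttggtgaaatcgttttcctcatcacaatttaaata
EXPA7: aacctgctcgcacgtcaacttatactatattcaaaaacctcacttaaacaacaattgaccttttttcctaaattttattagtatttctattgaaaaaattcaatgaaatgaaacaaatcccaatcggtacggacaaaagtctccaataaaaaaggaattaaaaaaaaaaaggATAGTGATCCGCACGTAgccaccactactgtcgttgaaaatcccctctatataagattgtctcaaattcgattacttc
LRX1: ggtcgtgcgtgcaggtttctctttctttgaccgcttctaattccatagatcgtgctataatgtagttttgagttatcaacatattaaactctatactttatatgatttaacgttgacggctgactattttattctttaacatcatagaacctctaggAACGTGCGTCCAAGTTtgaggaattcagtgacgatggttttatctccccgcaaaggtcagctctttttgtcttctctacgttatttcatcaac
MRH6: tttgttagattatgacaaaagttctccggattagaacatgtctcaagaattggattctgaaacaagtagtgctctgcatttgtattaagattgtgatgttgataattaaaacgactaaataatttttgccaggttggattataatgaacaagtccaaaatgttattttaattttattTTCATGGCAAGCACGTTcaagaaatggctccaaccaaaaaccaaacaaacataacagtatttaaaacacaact
RHS13: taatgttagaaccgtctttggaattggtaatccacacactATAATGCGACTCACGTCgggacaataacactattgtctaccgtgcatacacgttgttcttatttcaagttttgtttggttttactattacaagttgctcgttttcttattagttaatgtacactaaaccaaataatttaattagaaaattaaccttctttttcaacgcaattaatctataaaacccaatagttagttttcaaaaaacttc

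Genes without a match fell too. The 7 genes with a match had log2 fold changes of -5.77 to -2.78, and ADF8 (-3.17 ± 0.20), XTH14 (-3.66 ± 0.29), COBL9 (-3.16 ± 0.23), RSL4 (-3.01 ± 0.26) and RHS12 (-2.88 ± 0.20), which had no match in this window, lay in the same span, while the other 7 genes without a match changed less. The capitals in PRP1, PRP3 and LRX1 are matches on the strand opposite to the gene, and those in EXPA7, MRH6 (AT2G03720) and RHS13 are on the strand of the gene. MRH6, named for a hair morphology mutant, was a low transcript, from 7.70 to 12.6 CPM on plates (median 11.6) and from 0.404 to 1.31 CPM in soil (median 0.842) (-3.57 ± 0.23). RHS13, a gene of the root hair specific set, fell (-2.78 ± 0.29).

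The same list was followed in the other genotypes, whose libraries the wild type comparison does not use. They were fitted with wild type in a model of 57 root libraries, in which 9583 of 19427 genes (49.3%) were called in wild type. In rhd6-3/rsl1-1, a double mutant in 2 bHLH genes of hair initiation that has almost no root hairs, the summed level of the list was 96.6 to 126 CPM on plates (median 109, 5 libraries) and 103 to 123 CPM in soil (median 110, 6 libraries). In wild type the same fit gave 1191 to 2976 CPM on plates and 237 to 382 CPM in soil. The mutant thus lay under every wild type library in both media and its own media overlapped. Of the 19 genes, 2 fell in the mutant (9079 of all genes, 46.7%, were called there). They were EXPA18 (-3.21) and RHD6 (-0.87), which is itself mutated in this line. Members this low in both media could hardly fall further. The test of its difference from wild type is not used for this list, since those levels fix its direction. In esb1-1, a mutant of the Casparian strip protein ESB1, the summed level was 569 to 1294 CPM on plates and 264 to 412 CPM in soil (6 libraries each), 15 genes fell and 12 differed from wild type (674 of all genes, 3.47%). The test of the difference passed for no member in sos3-2 (9 genes of all, 0.0463%) or in the line labelled chx25-3 (131 genes, 0.674%).

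**Figure D2:**
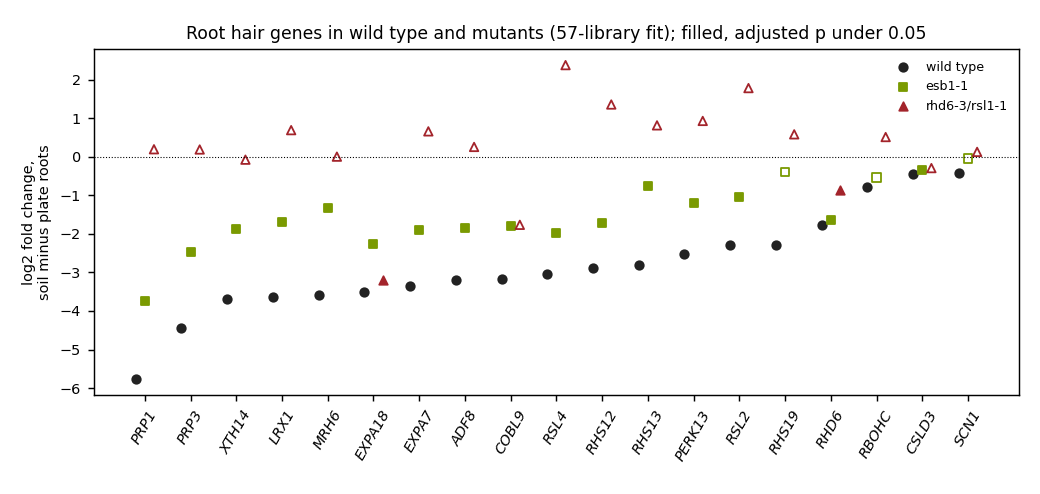
Log2 fold change of soil minus plate roots (y axis) for the 19 root hair genes (x axis) in wild type (black circles), esb1-1 (green squares) and rhd6-3/rsl1-1 (red triangles), all from the 57-library fit. Filled symbols have an adjusted p under 0.05. List medians are 0.25 in the double mutant and -3.03 in wild type. Members are low in both media in the double mutant, which fixes the direction of its difference from wild type. Its values for MRH6 and RHS12 could not be estimated (SE of the difference from wild type 6962 and 8642).

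Genes of the Casparian strip fell in part. Of 13 members, all tested, 7 fell, none rose and 6 were not called (median -0.83, edgeR adjusted p of called members at most 0.002), and 4 (30.8%) were free of overlap, against 37.6% of all genes. CASP5 (AT5G15290), a member of the membrane protein family that marks the strip, fell most (-4.62 ± 0.36), from 9.87 to 25.1 CPM on plates (median 19.4) and from 0.216 to 1.67 CPM in soil (median 0.646). CASP2 fell (-1.58 ± 0.15), the uclacyanin UCC1, a copper protein of the strip, (-1.41 ± 0.18) and the peroxidase PER64, which polymerises lignin there, (-1.23 ± 0.15). CASP1, at -0.85, overlapped between the media and was not called in 2x plants alone. ESB1 (AT2G28670), a dirigent-domain protein that places the lignin, ran from 209 to 473 CPM on plates (median 302) and from 115 to 282 CPM in soil (median 151) (-0.83 ± 0.20), and was not called in 2x plants alone. MYB36, the transcription factor that switches on strip genes, had a value of -0.46 ± 0.15 (edgeR adjusted p 0.013), just under the size needed for a call. It passed the call in 4x libraries alone (-0.82), without plate 2x replicate 3 (-0.59) and without soil 2x replicate 1 (-0.52). CASP4, the receptor kinase SGN3, the kinase SGN1, the NADPH oxidase RBOHF and UCC2 lay between -0.37 and 0.43 and were not called.

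Most suberin genes fell, with 15 of 19 tested members lower, 1 higher and 3 not called (median -1.23, edgeR adjusted p of called members at most 0.0021). The summed level was 1187 to 1516 CPM on plates and 466 to 702 CPM in soil, without overlap. ABCG6 (AT5G13580), a transporter that exports suberin precursors, fell most (-2.109 ± 0.14), from 52.5 to 71.95 CPM on plates (median 62.6) and from 11.1 to 18.22 CPM in soil (median 13.6). The fatty acid elongase KCS2 fell (-1.90 ± 0.11). LTPG15 (AT2G48130), a lipid transfer protein anchored at the cell surface, was the most abundant of those named, from 246 to 376 CPM on plates (median 276) and from 75.8 to 119 CPM in soil (median 97.4) (-1.63 ± 0.15). The fatty acid reductase FAR4 (-1.58 ± 0.17), the hydroxylase CYP86A1 (-1.41 ± 0.12), the acyltransferase GPAT5 (-1.23 ± 0.13) and the caffeoyltransferase FACT (-1.40 ± 0.17) lay close together. MYB92 (AT5G10280), a transcription factor of suberin synthesis, was the exception, rising by 0.82 ± 0.14, from 12.4 to 19.8 CPM on plates (median 15.3) and from 18.7 to 32.7 CPM in soil (median 29.5). MYB53 (0.01) and MYB93 (-0.31), factors of the same group, were not called, and MYB41, at most 2.60 CPM, was not tested.

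In esb1-1 the suberin genes took another course. Their summed level there was 842 to 1110 CPM on plates and 875 to 1033 CPM in soil (6 libraries each), against 1151 to 1550 and 459 to 700 CPM in wild type in the same fit. The mutant was thus under all wild type plate libraries on plates and over all wild type soil libraries in soil. The median soil minus plate value was 0.02 in the mutant and -1.26 in wild type, and 18 of 20 genes differed from wild type by the test of the difference, 17 of them less negative. ABCG6 differed by 1.88 ± 0.21 (SE, edgeR adjusted p 3.6e-08). In the double hair mutant the test passed for none of the suberin genes, and in the Casparian list 6 of 13 genes differed in esb1-1.

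Vascular cambium and phloem genes moved in the other direction. Of 14 members, all tested, 11 rose, none fell and 3 were not called (median 1.28, edgeR adjusted p of called members at most 0.018), and the summed level of 388 to 443 CPM on plates and 610 to 1001 CPM in soil did not overlap. WOX4 (AT1G46480), a homeobox factor that keeps the cambium dividing, rose most (1.81 ± 0.21), from 6.09 to 10.08 CPM on plates (median 7.79) and from 12.6 to 37.9 CPM in soil (median 27.04). KNAT1, a homeobox factor expressed in the root cambium, rose by 1.65 ± 0.26 and the growth regulator ANT by 1.496 ± 0.13. PXY, the receptor kinase upstream of WOX4, rose by 1.24 ± 0.26. SEOR1 (AT3G01680) and SEOR2 encode the filament proteins of sieve elements. SEOR1 ran from 32.3 to 46.1 CPM on plates (median 40.3) and from 75.6 to 140.5 CPM in soil (median 119.9) (1.54 ± 0.14) and SEOR2 rose by 1.61 ± 0.14. SMXL5 (1.49 ± 0.13), needed for phloem formation, and the sieve plate callose synthase CALS7 (1.31 ± 0.18) rose too. The sucrose exporter of companion cells SUC2 had -0.01, PP2-A1 0.29 and APL 0.39, and these were not called. The shoot meristem factor STM, described below, was low but higher in every soil library than on plates. Whether shoot tissue in the soil samples had a part in the rises of this list was not tested.

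Most secondary wall genes of the xylem were not called. Of 29 members 26 were tested, 3 rose, 3 fell and 20 were not called (median -0.09, edgeR adjusted p of called members at most 0.019). The cellulose synthases CESA4, CESA7 and CESA8 of the secondary wall had 0.34, -0.11 and -0.09. FLA12 (AT5G60490), a fasciclin-like protein of wood fibres and vessels, rose by 1.34 ± 0.21, from 24.2 to 48.5 CPM on plates (median 41.1) and from 51.5 to 135 CPM in soil (median 107.2), and the laccase LAC4, which oxidises monolignols, by 0.92 ± 0.14. The regulator KNAT7 fell (-0.79 ± 0.13). VND6 (0.71 ± 0.22), LAC11 (-0.64 ± 0.22) and MYB46 (-0.57 ± 0.16) were called here but lost the call in 4, 5 and 4 of the alternatives, VND6 without soil 2x replicate 1 (0.49), LAC11 without plate 2x replicate 3 (-0.54) or plate 4x replicate 3 (-0.47) and MYB46 without plate 2x replicate 3 (-0.49) or plate 4x replicate 1 (-0.49) among them. The monolignol genes, which supply lignin everywhere in the root, were lower: 10 of 15 fell, none rose and 5 were not called (median -0.61, edgeR adjusted p of called members at most 0.0011). PAL2 (AT3G53260), the first enzyme of the phenylpropanoid route, ran from 283 to 415 CPM on plates (median 334) and from 128 to 174 CPM in soil (median 146) (-1.22 ± 0.13). The summed level of the list was 4498 to 5706 CPM on plates and 3273 to 3885 CPM in soil.

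Markers of dividing cells and of the root tip were higher in soil roots by small amounts. Of 26 members 23 were tested, 14 rose, none fell and 9 were not called (median 0.70, edgeR adjusted p of called members at most 0.02), with 6 (26.1%) free of overlap, against 37.6% of all genes. The mitotic cyclin CYCB1;2 (AT5G06150) ran from 5.63 to 9.62 CPM on plates (median 7.56) and from 10.8 to 19.3 CPM in soil (median 16.5) (1.06 ± 0.17). CYCA1;1 rose by 0.94 ± 0.13 and the replication clamp PCNA1 by 0.92 ± 0.18. BBM (AT5G17430), a transcription factor of the root meristem, rose by 1.76 ± 0.33 but was low, from 0.234 to 1.32 CPM on plates (median 1.03) and from 2.21 to 4.16 CPM in soil (median 2.92). PLT1 (1.00 ± 0.33) overlapped between the media and was not called in 2x libraries alone, in 4x libraries alone or within the first series of sample numbers. PLT3 rose by 0.98 ± 0.18, and was not called within that series (0.63). WOX5, the marker of the quiescent centre, was at most 0.514 CPM on plates and 3.14 CPM in soil and was not tested.

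Genes of nitrogen uptake and assimilation went both ways. Of 23 members 19 were tested, 3 rose, 8 fell and 8 were not called (median -0.22, edgeR adjusted p of called members at most 0.0027), and 11 were free of overlap. NIA1 (AT1G77760), a nitrate reductase, rose by 1.91 ± 0.12, from 224 to 269 CPM on plates (median 261) and from 847 to 1099 CPM in soil (median 923). LBD39 (1.61 ± 0.11), a nitrate-induced repressor, and HRS1 (1.08 ± 0.11), a nitrate-induced factor that links nitrate with phosphate signals, rose with it. The other nitrate reductase gene, NIA2, fell (-0.71 ± 0.13). Nitrite reductase NIR1 (0.32), UPM1 (0.17), G6PD3 (0.12) and the main high-affinity transporter NRT2.1 (0.65, edgeR adjusted p 0.076) were not called. The cytosolic glutamine synthetases, which fix ammonium, fell most. GLN1;1 (AT5G37600) ran from 256 to 406 CPM on plates (median 330.3) and from 59.6 to 79.3 CPM in soil (median 68.5) (-2.27 ± 0.14) and GLN1;2 (AT1G66200) from 2284 to 3767 CPM on plates (median 2889) and from 458 to 965 CPM in soil (median 736) (-2.08 ± 0.20). The ammonium transporters AMT1;1 (-1.23 ± 0.13) and AMT1;2 (-1.27 ± 0.21), the nitrate transceptor NPF6.3 (-1.16 ± 0.21) and NRT3.1 (-1.06 ± 0.15), the partner protein of NRT2.1, fell about as far as each other.

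The phosphate starvation list fell among its scavenging genes and rose in the xylem exporter. Of 23 members 16 were tested, 3 rose, 8 fell and 5 were not called (median -0.61, edgeR adjusted p of called members at most 0.0031). PHO1 (AT3G23430), which loads phosphate into the xylem, ran from 49.7 to 59.3 CPM on plates (median 55.1) and from 172 to 207 CPM in soil (median 178), a rise of 1.73 ± 0.10. The noncoding starvation transcript AT4 rose by 1.07 ± 0.19 with overlap between the media, and NLA by 0.55 ± 0.14, a call lost in 6 alternatives, among them those without plate 4x replicate 2 (0.49), soil 4x replicate 1 (0.50) or soil 4x replicate 3 (0.48). The ribonuclease RNS1 (AT2G02990) fell most (-3.28 ± 0.32), from 16.96 to 36.3 CPM on plates (median 23.9) and from 1.05 to 4.31 CPM in soil (median 2.56). The phosphate transporter PHT1;4 fell (-2.41 ± 0.16) and PHT1;1 (-0.82 ± 0.17). Secreted acid phosphatases fell as well, PAP17 (-2.06 ± 0.17), PAP10 (-1.97 ± 0.21) and PAP12 (-1.17 ± 0.11). SQD2, which makes the sulfolipid that can stand in for phospholipids, fell (-1.82 ± 0.12), whereas SQD1 (-0.40) missed the size and MGD2 (-0.20) and GDPD1 (-0.19) were not called.

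Iron acquisition was lower in soil roots at most of its steps. Of 29 members 25 were tested, 18 fell, 10 of them 4-fold or more, 1 rose and 6 were not called (median -1.45, edgeR adjusted p of called members at most 0.0037). Strategy I plants such as Arabidopsis acidify the medium, reduce ferric iron and import ferrous iron, under control of the bHLH factor FIT and its partners, and secrete coumarins that mobilise iron. The transporter gene IRT2 (AT4G19680) fell most (-5.04 ± 0.40), from 20.2 to 51.3 CPM on plates (median 30.9) and from 0 to 2.16 CPM in soil (median 1.11). The main importer IRT1 (AT4G19690) fell (-2.23 ± 0.25), from 115 to 425 CPM on plates (median 237) and from 40.8 to 75.5 CPM in soil (median 47.3). The reductase FRO2 fell (-1.29 ± 0.23) and the proton pump AHA2 (-1.28 ± 0.18). Of the FIT partners, BHLH38 fell (-4.25 ± 0.34), BHLH39 (-2.18 ± 0.26) and BHLH100 (-4.81 ± 0.60), while FIT itself had -0.34 and was not called. NAS1 (AT5G04950), a nicotianamine synthase and the most abundant of the named iron genes, ran from 442 to 777 CPM on plates (median 554) and from 30.7 to 71.2 CPM in soil (median 40.99) (-3.70 ± 0.21). In the coumarin branch F6'H1 fell (-1.98 ± 0.18), COSY (-2.01 ± 0.15), S8H (-1.12 ± 0.29), CYP82C4 (-2.77 ± 0.31) and the exporter ABCG37 (-1.44 ± 0.12), the call of S8H being lost within the first series of sample numbers (-1.05) and in 2x libraries alone. MYB72, a regulator of coumarin secretion, had no counts in soil and at most 1.40 CPM on plates, at least 6.23-fold lower against a floor of 3 counts over the soil group. FER1, the iron store ferritin, was the only member to rise (0.72 ± 0.16), with overlap, and was not called in 4x plants alone.

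Among sulfur limitation genes the share of members called (50%) was near that of all genes (49%), and the count is no result about the list. Of 13 members 12 were tested, 1 rose, 5 fell and 6 were not called (median -0.52, edgeR adjusted p of called members at most 0.0087), and 33.3% were free of overlap, against 37.6% of all genes. LSU1 (AT3G49580), a small protein that accumulates on low sulfur, ran from 35.2 to 56.1 CPM on plates (median 46.6) and from 0.105 to 0.715 CPM in soil (median 0.292) (-7.05 ± 0.28), while its paralogue LSU2 had -0.17 and was not called. The sulfate transporters SULTR2;1 (-1.65 ± 0.19) and SULTR1;2 (-0.86 ± 0.18) fell, and SULTR1;1 (-0.27) was not called. SDI1, which holds back glucosinolate synthesis on low sulfur, fell (-1.98 ± 0.37) with overlap, since 1 soil library reached 45.5 CPM. APR2, an enzyme of sulfate reduction, rose by 0.96 ± 0.19.

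Potassium and sodium transport genes moved apart, with 2 genes of xylem transport higher and others lower, among them the uptake gene HAK5. Of 17 members, all tested, 2 rose, 9 fell and 6 were not called (median -0.56, edgeR adjusted p of called members at most 0.0025). SKOR (AT3G02850), the channel that releases potassium into the xylem, rose by 4.53 ± 0.23, from 1.83 to 3.87 CPM on plates (median 2.89) and from 43.9 to 94.3 CPM in soil (median 64.04). HKT1 (AT4G10310), which retrieves sodium from the xylem, rose by 4.23 ± 0.28, from 3.39 to 6.21 CPM on plates (median 5.04) and from 45.7 to 155 CPM in soil (median 91.98). Both are genes of the stele, and every soil library lay more than 7 times above the highest plate library. Of the 2 uptake genes HAK5 and AKT1, HAK5 fell and AKT1 was not called. HAK5 (AT4G13420), the high-affinity potassium transporter, ran from 53.5 to 104.02 CPM on plates (median 73.7) and from 3.23 to 11.8 CPM in soil (median 6.87) (-3.50 ± 0.18). RAP2.11, a transcription factor that activates HAK5, fell (-3.11 ± 0.25). CHX17 (AT4G23700), a cation/proton exchanger, fell most (-4.21 ± 0.22), from 86.5 to 209 CPM on plates (median 146) and from 5.47 to 11.7 CPM in soil (median 7.17). The uptake channel AKT1 (AT2G26650) had 0.19 ± 0.13 (edgeR adjusted p 0.21), from 50.8 to 75.6 CPM on plates (median 56.9) and from 51.7 to 84.2 CPM in soil (median 64.9), and was not called, and its silent partner subunit KC1 fell (-1.21 ± 0.15). The calcium sensors CBL1 (-1.05 ± 0.12) and CBL9 (-0.87 ± 0.11) that act on AKT1 fell, and their kinase CIPK23 had -0.25. SOS3 (AT5G24270), the calcium sensor of the salt pathway, fell (-0.56 ± 0.14), from 8.48 to 13.9 CPM on plates (median 12.4) and from 5.82 to 11.2 CPM in soil (median 8.10), with the call lost in 5 alternatives, among them the first series of sample numbers alone (-0.38) and that without plate 4x replicate 3 (-0.47). The sodium exporter SOS1 fell (-0.80 ± 0.14), and SOS2 had -0.30.

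**Figure D3:**
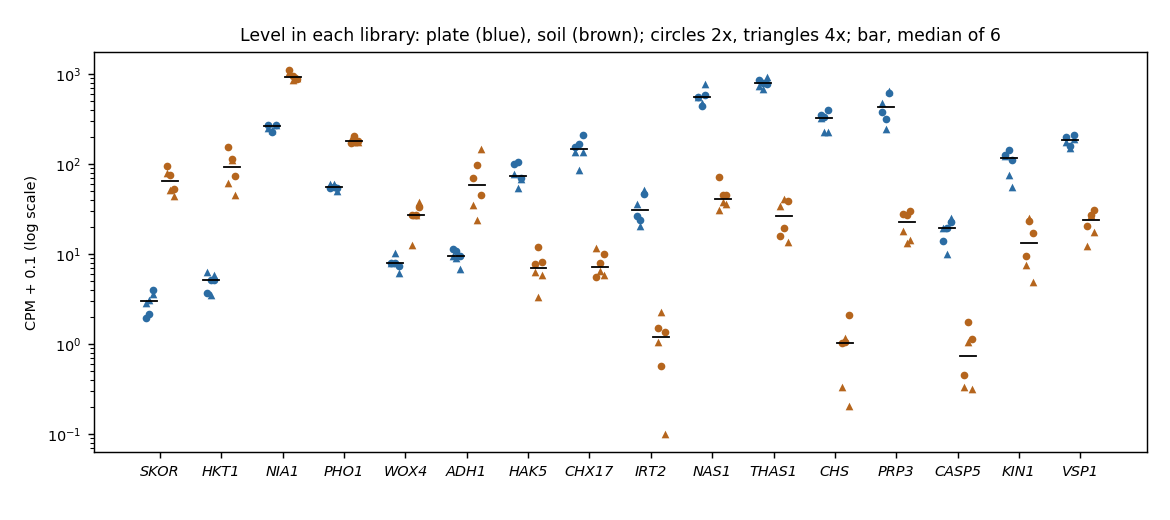
CPM plus 0.1 on a log scale (y axis) of 16 genes (x axis) in each of the 12 libraries, plates in blue and soil in brown, circles for 2x and triangles for 4x plants, with a bar at the median of 6 libraries. In each gene drawn the soil libraries lie apart from the plate libraries, as for SKOR with 1.83 to 3.87 CPM on plates and 43.9 to 94.3 CPM in soil.

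Aquaporins, channels for water, rose more often than they fell. Of 19 members, all tested, 10 rose, 2 fell and 7 were not called (median 0.59, edgeR adjusted p of called members at most 0.009). TIP2;3 (AT5G47450), a vacuolar aquaporin, ran from 318 to 972 CPM on plates (median 589) and from 913 to 4559.7 CPM in soil (median 2530.2) (2.17 ± 0.29), with overlap between the media. The plasma membrane aquaporin PIP2;2 (AT2G37170) rose by 1.63 ± 0.16 without overlap, from 392 to 593 CPM on plates (median 478) and from 915 to 2083 CPM in soil (median 1474). PIP2;1 rose by 1.31 ± 0.15, PIP2;5 by 1.64 ± 0.24 and TIP2;2 by 1.35 ± 0.18. TIP4;1 fell (-1.77 ± 0.13) and PIP2;6 (-1.097 ± 0.19). PIP2;2 and PIP2;3 are close copies, so the split of reads between them is uncertain.

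The flavonoid list had the lowest median of the 30 lists, although only 6 of 14 members passed the filter on low counts. All 6 fell 4-fold or more (median -5.22, edgeR adjusted p of called members at most 3.8e-07), and since a gene low in both media does not pass the filter, the count speaks for these 6 alone. Chalcone synthase (CHS, AT5G13930, listed by RefSeq as TT4), the entry enzyme, ran from 226 to 394 CPM on plates (median 327) and from 0.108 to 2.001 CPM in soil (median 0.942) (-8.47 ± 0.30). Chalcone isomerase CHI fell (-5.51 ± 0.29), F3H (-5.70 ± 0.33) and the flavonol synthase FLS1 (-4.58 ± 0.18). MYB12 (AT2G47460), the factor that switches on flavonol genes in roots, ran from 3.91 to 7.26 CPM on plates (median 5.95) and from 0 to 0.698 CPM in soil (median 0.0596) (-4.92 ± 0.48). UGT78D2, a flavonoid glucosyltransferase, fell (-3.65 ± 0.24). The anthocyanin genes DFR, LDOX and UF3GT were at most 1.16 CPM in any library of either medium. In plants flavonoid synthesis is known to be induced by light and sucrose; day length and sucrose both differed between the media and cannot be told apart.

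Root triterpene genes, which form gene clusters on the chromosomes, fell with an exception in 1 cluster. Of 10 members 9 were tested, 7 fell, all of them 4-fold or more, and 2 rose (median -2.70, edgeR adjusted p of called members at most 0.00074). The thalianol cluster holds THAS1 (AT5G48010), THAH, THAD and THAA1. THAS1, the oxidosqualene cyclase that makes thalianol, ran from 681 to 915 CPM on plates (median 782) and from 13.4 to 41.2 CPM in soil (median 26.6) (-4.87 ± 0.28). THAD fell (-4.52 ± 0.32), THAH (-4.13 ± 0.23) and THAA1 (-3.77 ± 0.28). In the marneral cluster the cyclase MRN1 fell (-2.28 ± 0.43) with overlap, CYP705A12 (-2.70 ± 0.25) and CYP71A16 (-2.12 ± 0.25). PEN1, the arabidiol synthase, and its neighbour CYP705A1 (AT4G15330) rose, by 0.76 ± 0.16 and 1.80 ± 0.13. CYP705A1 ran from 9.72 to 14.9 CPM on plates (median 12.4) and from 35.5 to 47.7 CPM in soil (median 43.9).

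The 2 glucosinolate branches moved in opposite directions. Of 22 members of the indole branch and of ER bodies, all tested, 13 fell, 1 rose and 8 were not called (median -0.67, edgeR adjusted p of called members at most 0.0078). PYK10 (AT3G09260), the beta-glucosidase stored in ER bodies and among the most abundant root transcripts, ran from 10515 to 14286 CPM on plates (median 12138) and from 1459.6 to 2427 CPM in soil (median 2061) (-2.63 ± 0.17). NAI1, the bHLH factor needed for ER bodies, fell (-2.07 ± 0.15) and the PYK10-binding protein gene PBP1 (-1.71 ± 0.14). Of the enzymes that modify the indole ring, CYP81F2 fell (-3.08 ± 0.31), CYP81F4 (-2.21 ± 0.18) and the methyltransferase IGMT5 (-2.08 ± 0.23), while CYP81F1 rose by 0.71 ± 0.20 with overlap, a call lost without soil 4x replicate 1 (0.48). Of those that build the core, CYP79B2 fell (-0.60 ± 0.18) and CYP79B3 (0.18), CYP83B1 (-0.35) and SUR1 (-0.35) were not called. In the aliphatic branch 13 of 17 members were tested, 9 rose, 1 fell and 3 were not called (median 0.98, edgeR adjusted p of called members at most 0.0049). MAM1 (AT5G23010), a chain-elongating synthase, ran from 8.42 to 18.1 CPM on plates (median 10.89) and from 26.9 to 76.2 CPM in soil (median 45.6) (1.99 ± 0.17). CYP83A1 rose by 1.498 ± 0.19, MAM3 by 1.35 ± 0.13, CYP79F2 by 1.18 ± 0.18 and the regulator MYB28 by 0.83 ± 0.11. The sulfotransferase SOT17 fell (-0.78 ± 0.21) with overlap, and was not called within the first series of sample numbers (-0.30). Without the 2 soil libraries with TGG1 reads the called members of this list kept their calls.

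Defence genes did not move as a group. In the salicylic acid list 11 of 17 members were tested, 4 rose, 3 fell and 4 were not called (median 0.19, edgeR adjusted p of called members at most 0.045). WRKY62 had 1 count over the plate libraries and 2.79 to 11.8 CPM (median 5.34) in soil, a ratio of 328 with a 95% counting interval of 58.5 to 13011. NIMIN1 (AT1G02450), which binds the salicylic acid receptor NPR1, rose by 4.16 ± 0.39, from 0.0962 to 1.17 CPM on plates (median 0.499) and from 4.41 to 20.8 CPM in soil (median 8.66), and WRKY54 by 2.51 ± 0.23. The classical marker PR1 was at or under 0.238 CPM in all libraries and was not tested. WRKY70 fell (-0.83 ± 0.16). ICS1 (0.55 ± 0.17), PBS3 (-1.12 ± 0.35) and FMO1 (-0.69 ± 0.29) overlapped and lost their calls in 4 to 15 alternatives. ICS1 did so without plate 4x replicate 2 (0.49), soil 2x replicate 3 (0.43) or soil 4x replicate 1 (0.49). FMO1 did so without plate 2x replicate 3, any 4x plate replicate, soil 2x replicate 1 or 2 or any 4x soil replicate (-0.74 to -0.43). In the microbe-triggered and ethylene list 10 of 16 were tested, 2 rose, 7 fell and 1 was not called (median -0.91, edgeR adjusted p of called members at most 0.033). CYP71A12 (AT2G30750), an enzyme towards camalexin and related indole compounds, ran from 286 to 508 CPM on plates (median 432) and from 2.59 to 18.1 CPM in soil (median 7.295) (-5.66 ± 0.37). CYP71A13 fell (-4.80 ± 0.46) and PAD3, the last enzyme of camalexin synthesis, (-1.51 ± 0.23). PR4 (AT3G04720), an ethylene-responsive pathogenesis-related protein, ran from 420.4 to 858 CPM on plates (median 691) and from 102.6 to 136 CPM in soil (median 110.9) (-2.54 ± 0.16). ORA59 (AT1G06160), the factor that joins ethylene and jasmonate signals, rose by 2.04 ± 0.21, from 3.63 to 5.502 CPM on plates (median 5.10) and from 10.6 to 28.1 CPM in soil (median 20.96), while its target PDF1.2A was at most 0.238 CPM.

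Of the jasmonate genes 14 of 20 were tested, 3 were higher, 5 lower and 6 not called (median 0.16, edgeR adjusted p of called members at most 0.0019). These shares (21.4% higher and 35.7% lower) lay near those of all genes (24.8 and 24.2%) and are no result about the list. The storage protein genes VSP1 (AT5G24780) and VSP2, classical jasmonate markers, fell. VSP1 ran from 149 to 208 CPM on plates (median 182) and from 12.1 to 30.6 CPM in soil (median 23.5) (-3.02 ± 0.18). VSP2 fell (-1.56 ± 0.35) and was not called in 2x plants alone (-0.83). The synthesis gene AOC2 fell (-2.88 ± 0.38) and OPR3 (-0.72 ± 0.10). The repressors JAZ5 (1.82 ± 0.17) and JAZ2 (0.87 ± 0.10) rose. AOS, at 0.50 ± 0.12, stood on the limit of the call and lost it in 14 alternatives, among them those without plate 2x replicate 1 or 2, plate 4x replicate 2, soil 2x replicate 2 or soil 4x replicate 1 (0.45 to 0.48). JAZ8 had no counts on plates and at most 0.596 CPM in soil, at least 3.21-fold higher against the floor of 3 counts over the plate group.

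Hypoxia genes rose, apart from a few. Of 20 members 19 were tested, 15 rose, 9 of them 4-fold or more, none fell and 4 were not called (median 1.73, edgeR adjusted p of called members at most 0.026), and 12 were free of overlap. Plant cells short of oxygen stabilise group VII ethylene response factors, which switch on fermentation, sucrose synthase and feedback regulators. ADH1 (AT1G77120), alcohol dehydrogenase of fermentation, ran from 6.67 to 11.2 CPM on plates (median 9.40) and from 23.58 to 148 CPM in soil (median 57.7) (2.91 ± 0.37). The sucrose synthases SUS4 (2.65 ± 0.29) and SUS1 (1.503 ± 0.16) and the phytoglobin PGB1 (1.55 ± 0.24) rose. PCO1 and PCO2, the cysteine oxidases that sense oxygen and mark those factors for decay, rose by 2.25 ± 0.26 and 3.12 ± 0.41. HUP36 (AT1G19530), a hypoxia-induced gene of unknown function, was the most abundant of those named, from 31.7 to 53.03 CPM on plates (median 39.2) and from 115 to 419.8 CPM in soil (median 239) (2.65 ± 0.27). The factor HRE1 rose by 2.13 ± 0.18 and the repressor LBD41 by 1.40 ± 0.26. HRA1 (1.14 ± 0.41) was not called without the 2 soil libraries with TGG1 reads, and neither was it without plate 2x replicate 3 (0.98), soil 2x replicate 1 (0.85) or soil 4x replicate 3 (0.64). Pyruvate decarboxylases PDC1 (0.40) and PDC2 (0.18), lactate dehydrogenase LDH1 (0.24) and ALAAT1 (-0.38) were not called. The medium, the age of the roots and the rinsing of soil roots in water before freezing cannot be told apart here.

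Most abscisic acid and drought genes were lower or not called. Of 23 members 21 were tested, 11 fell, 1 rose and 9 were not called (median -0.77, edgeR adjusted p of called members at most 0.012). KIN1 (AT5G15960), a small hydrophilic stress protein, ran from 55.7 to 145 CPM on plates (median 116) and from 4.85 to 24.8 CPM in soil (median 13.3) (-2.87 ± 0.33), and its neighbour KIN2 fell (-2.31 ± 0.21). These are tandem copies whose reads may be shared. The dehydrin COR47 (AT1G20440) ran from 823 to 1569 CPM on plates (median 1213) and from 213 to 476 CPM in soil (median 335) (-1.84 ± 0.16). The homeobox factor HB7 fell (-1.68 ± 0.18), the NAC factor RD26 (-1.63 ± 0.21), the proline enzyme P5CS1 (-1.44 ± 0.16) and NCED3, which limits abscisic acid synthesis, (-1.13 ± 0.23). The reporters RD29A (-0.31), RD29B (1.09, edgeR adjusted p 0.076) and RAB18 (-0.67, 0.15) were not called. HAI2, a phosphatase of the pathway, rose by 1.09 ± 0.34 at low level and with overlap, while HAI1 fell (-1.60 ± 0.27).

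Sugar-responsive genes gave no uniform picture, although only the plates held sucrose. Of 16 genes known to rise when sugar is short, all tested, 8 rose, 5 fell and 3 were not called (median 0.50, edgeR adjusted p of called members at most 0.042). The dormancy-associated genes DRM2 and DRM1 (AT1G28330) rose most. DRM1 ran from 182 to 383 CPM on plates (median 323) and from 465 to 1995 CPM in soil (median 1108) (1.94 ± 0.30), and within the first series of sample numbers its change was 0.97. DRM2 rose by 2.51 ± 0.29. ASN1, an asparagine synthetase of starved tissue, rose by 0.88 ± 0.23 with overlap and TPS8 by 0.84 ± 0.15. The glutamate dehydrogenase GDH2 (AT5G07440) fell (-2.24 ± 0.17), from 170.4 to 253 CPM on plates (median 196) and from 26.3 to 54.3 CPM in soil (median 42.2), and IVD, of leucine breakdown, (-1.14 ± 0.14). SEN1 (-0.81 ± 0.33) lost its call in 13 alternatives, among them those without plate 2x replicate 1 or 3, plate 4x replicate 3, soil 2x replicate 1 or 3 or soil 4x replicate 3 (-0.80 to -0.60). Of 5 sugar-induced genes, 1 passed the filter, APL3, with a value of 0.13 that was not called.

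Rapid stress, heat shock and cytokinin response genes went different ways. In the list of rapid stress and touch genes, 11 of 16 were tested, 4 rose, 3 fell and 4 were not called (median 0.29, edgeR adjusted p of called members at most 0.005), and CBF1 was not analysed here. ZAT12 (AT5G59820), a zinc finger factor of oxidative stress, fell (-1.87 ± 0.15), from 38.9 to 63.4 CPM on plates (median 45.2) and from 10.6 to 16.6 CPM in soil (median 12.6). The touch genes parted, with TCH2, a calmodulin-like protein, at -0.91 ± 0.14 and TCH4, a wall enzyme, at 0.84 ± 0.18. The list median was -0.18 in 2x libraries alone and 0.65 in 4x libraries alone. Heat shock genes had 7 of 10 tested, 4 lower, none higher and 3 not called (median -1.14, edgeR adjusted p of called members at most 0.025). HSP90.1 (AT5G52640) ran from 123 to 187 CPM on plates (median 157) and from 12.1 to 151 CPM in soil (median 49.4) (-1.44 ± 0.34), with soil plants spread over more than 10-fold and the call lost within the first series of sample numbers (-1.33). Of the type A cytokinin regulators 8 of 9 were tested, 3 rose, 2 fell and 3 were not called (median 0.38, edgeR adjusted p of called members at most 0.028). ARR16 (-2.196 ± 0.23) and ARR3 (-2.02 ± 0.20) fell 4-fold or more and ARR8 rose by 0.85 ± 0.14.

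Photosynthesis genes were at low levels on plates and lower in soil. Of 25 members 23 were tested, 21 fell, 12 of them 4-fold or more, none rose and 2 were not called (median -2.02, edgeR adjusted p of called members at most 0.0034). The summed level was 516 to 797 CPM on plates (median 585) and 114 to 324 CPM in soil (median 137), without overlap. GAPA1, a Calvin cycle dehydrogenase, fell most (-3.41 ± 0.29), and its annotation overlaps another gene on the same strand. PSAF (AT1G31330), a subunit of photosystem I, ran from 46.3 to 64.6 CPM on plates (median 51.3) and from 2.21 to 19.9 CPM in soil (median 5.60) (-2.89 ± 0.36). The light-harvesting gene LHCA3 fell (-2.62 ± 0.18) and RBCS1A, the small subunit of Rubisco, (-1.82 ± 0.35). LHCB1.1 (0.68, edgeR adjusted p 0.38) and RBCS3B (-0.03) were not called. Without the 2 soil libraries with TGG1 reads the list median was -2.54 and within the first series of sample numbers -2.66.

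Shoot identity genes were mostly too low to be tested. Of 15 members, YAB1, YAB3, FT and MUTE had no counts, 4 were tested, 2 fell and 2 were not called (median -0.52, edgeR adjusted p of called members at most 0.00016). CER1 (AT1G02205), an enzyme of cuticle wax, fell (-4.52 ± 0.28), from 9.05 to 22.9 CPM on plates (median 15.4) and from 0.119 to 1.67 CPM in soil (median 0.623). STM, the factor of the shoot meristem, was at most 0.117 CPM on plates and 0.951 to 8.94 CPM in soil and did not pass the filter. LSH10 (AT2G42610), which lies outside the lists and was chosen after its values were seen, rose by 5.17 ± 0.29, from 1.64 to 3.50 CPM on plates (median 2.59) and from 35.8 to 125 CPM in soil (median 94.1).

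Clock genes spread widely among the soil plants. Of 19 members 17 were tested, 7 rose, 1 fell and 9 were not called (median 0.52, edgeR adjusted p of called members at most 0.024), and 1 (5.88%) was free of overlap, against 37.6% of all genes. CCA1, a morning factor, stood at 83.3, 2.86 and 1.47 CPM in soil 2x replicates 1 to 3 and at 85.4, 39.1 and 3.88 CPM in 4x replicates 1 to 3, against 3.93 to 7.22 CPM on plates (2.67 ± 0.79). Its call was lost without soil 2x replicate 1 (1.54, edgeR adjusted p 0.13), in 2x libraries alone and in limma-voom. LHY, its partner, stood at 222, 6.67 and 2.42 CPM in 2x and 177, 138 and 11.4 CPM in 4x soil plants, against 22.1 to 37.2 CPM on plates, and was not called (1.56, edgeR adjusted p 0.09). ELF4, an evening gene, went the other way, at 0.233, 5.84 and 15.1 CPM in 2x and 1.67, 0.404 and 5.71 CPM in 4x soil plants and 27.6 to 63.3 CPM on plates (-3.21 ± 0.53). The soil plants with high CCA1 were those with low ELF4. LNK3 (2.21 ± 0.49) and LNK2 (1.95 ± 0.49) rose with overlap, as did GRP7, a clock-regulated RNA-binding protein, at 1.52 ± 0.38, which was not called within the first series of sample numbers (0.43). Ordered by library number (34, 52, 61, 95, 99 and 127), the soil plants had CCA1 at 85.4, 83.3, 39.1, 3.88, 2.86 and 1.47 CPM. The soil libraries of the first series of sample numbers were thus those with the highest CCA1. A call lost within that series cannot be told apart from this spread of clock genes. The time of harvest of each plant is not given in the sources used here.

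**Figure D4:**
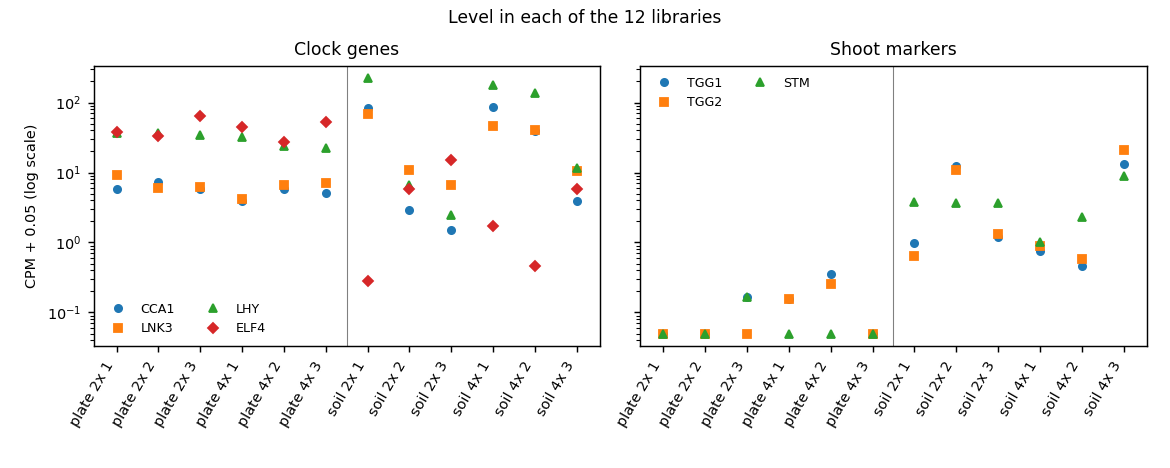
CPM plus 0.05 on a log scale (y axis) of 4 clock genes (left) and 3 shoot markers (right) in each of the 12 libraries (x axis), with plates left of the line and soil right of it, so that a gene without counts sits at 0.05. CCA1 and LHY are high in soil 2x replicate 1 and 4x replicates 1 and 2, and TGG1 and TGG2 in soil 2x replicate 2 and 4x replicate 3.

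The 2x and 4x plants were compared gene by gene. Of 17959 genes, 1 (0.00557%) had a soil minus plate difference that depended on ploidy at an adjusted p under 0.05 (edgeR), while 603 had an unadjusted p under 0.05 and DESeq2 called 7. The gene was AT2G05250, which had 24.3 to 33.3 CPM in 2x plate libraries, no counts in the 3 plate libraries of 4x plants and 35.01 to 45.1 CPM in all soil libraries. A difference between ploidies of less than the spread of 3 libraries would not be seen in this design. Of the 449 tested list members, 301 were called, and all 301 had the same sign in 2x libraries alone and in 4x libraries alone. The call rests on these same libraries and largely sets the shared sign, which is thus a description and no test of agreement between ploidies.

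**Figure D5:**
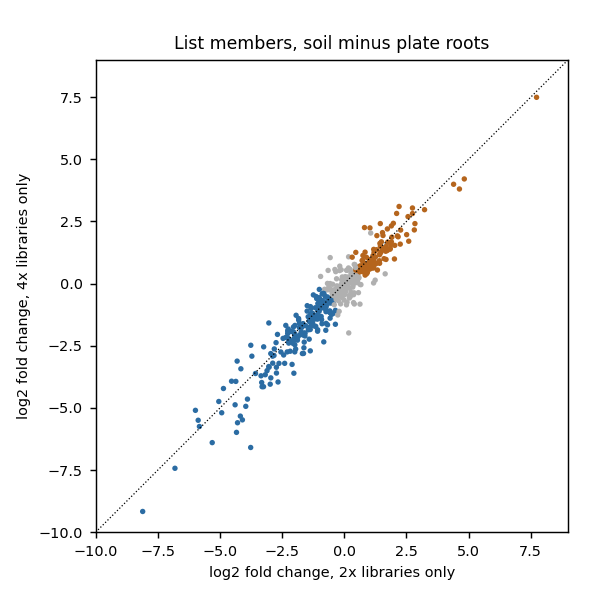
Log2 fold change of soil minus plate roots in 4x libraries (y axis) against that in 2x libraries (x axis) for 449 tested list members, with the line of equal values dotted. Brown and blue points were called higher and lower in the fit to all 12 libraries. All 301 of them have the same sign on both axes, which a call made on these same libraries largely sets.

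The wild type changes were also read in the roots of the 4 other genotypes, grown in the same 2 ways and subject to the same confounding. Of the 1295 genes that changed 4-fold or more in wild type, 1285 (99.2%) were called in the same direction in sos3-2, where 8170 of 19427 genes (42.1%) were called in all. In chx25-3 the count was 1286 (99.3%, against 53.7% of all genes), in esb1-1 1255 (96.9%, against 40.4%) and in rhd6-3/rsl1-1 1140 (88%, against 46.7%). The shares of all genes cover changes of any size and either direction. They are therefore no like measure for genes picked for a large change under the same confounding. The test of the difference from wild type called 3 of the 1295 genes in sos3-2, 20 in chx25-3, 207 in esb1-1 and 136 in rhd6-3/rsl1-1. Of all genes it called 0.0463% in sos3-2, 0.674% in chx25-3, 3.47% in esb1-1 and 2.74% in rhd6-3/rsl1-1. The 1295 genes were picked for a large wild type change, and the test sets each mutant against that same change. That choice alone favours differences from wild type, so these counts are a description and no test. In rhd6-3/rsl1-1, 7 of the genes were called in the opposite direction. Hypoxia genes rose in 13 to 15 of 20 tested members in each of the 4 mutants, with medians of 1.43 to 1.67, 2 members fell in esb1-1, and in no member did the difference from wild type pass the test. In the flavonoid list all 6 tested genes fell in each mutant, and 1 of them differed from wild type in rhd6-3/rsl1-1. As in wild type, a flavonoid gene low in both media does not pass the filter, so this count speaks for these 6 alone. The abscisic acid and drought list was the most variable of these, with medians of -0.78 in wild type, 0.01 in esb1-1 and -1.86 in rhd6-3/rsl1-1, where 4 and 3 of 21 genes differed from wild type by the test.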

How the data were processed

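Sequencing used a 3′ mRNA library kit with single-end reads. The authors quantified the reads with Salmon on the Galaxy Europe server, and the deposited files hold, per transcript, estimated counts of reads and TPM, a length-scaled measure that the authors derived from them. The Salmon version, transcript set and genome build are not given in the sources used here. The estimated counts of 81620 transcripts were summed to 33681 AGI loci and rounded to whole numbers. Before summing, 24.9 to 47.2% of the nonzero transcript estimates in a library were not whole. The TPM served for 1 alternative only. Genes reaching 2 CPM in 6 or more of the 12 libraries (17959, holding at least 99.5% of the reads of each library) were fitted in edgeR 4.0.16 (R 4.3.3) with TMM scaling, a term for ploidy and a term for medium, in a quasi-likelihood test with Benjamini-Hochberg adjustment. Alternatives were limma-voom on scaled TPM, as in the study's own model (limma 3.58.1), DESeq2 1.42.0, and other scalings, filters and sets of libraries. Standard errors follow from the fold change and its F value. The 57-library fit holds wild type and 4 mutants in both media and tests each mutant's soil minus plate difference against that of wild type. Counting intervals are exact and, like the floor of 3 counts, cover counting error only.

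The members and gene lists were chosen with earlier results of these data known. Genes were named by a rule that took the 10 largest fold changes in each direction among genes called at 4-fold or more, without overlap and with a mean of at least 20 CPM, the 5 largest differences of CPM in each direction, and up to 6 called members per list and direction. The scripts were tested on simulated counts. Replicate numbers were not taken as pairs in the main fit. Correlations of the deviations of same-numbered libraries ran from -0.08 to 0.50. The highest, 0.50 and 0.40, were between 2x and 4x plate libraries of replicates 2 and 3. Libraries with different numbers were not compared, so these values cannot exclude a pairing. No libraries were duplicates. Gene positions and the upstream windows come from RefSeq TAIR10.1, in which 17819 of the tested genes have an entry. A further 2 libraries of the series have labels that put them in no group and were not analysed here.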

Additional observations from a re-analysis of the deposited data

Results flagged for a closer look

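In 3 genes the soil libraries held 1 value far from the other 5: AT4G39675 at 2267 CPM and AT3G52740 at 0.421 CPM, both above the rest, and the mitochondrial ATMG00020 at 2078 CPM, below the rest. The value of AT3G52740 lies close to the floor of 3 counts (0.289 to 0.404 CPM). Among 76 groups of 6 libraries examined in this way, chance marks about 5%, and the 3 flags are not more than that.

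The soil minus plate difference depended on ploidy in 1 gene, AT2G05250, which encodes a DNAJ-domain protein (edgeR adjusted p 3.8e-07, 6 libraries of each ploidy). It had no counts in the 3 plate libraries of 4x plants and 24.3 to 33.3 CPM in those of 2x plants, and since the fitted size then depends on the prior count, none is given.

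The soil minus plate difference of a mutant differed from that of wild type, by the test of the difference in the 57-library edgeR fit, most often in esb1-1 (674 genes) and rhd6-3/rsl1-1 (533 genes), and in 131 genes in chx25-3 and 9 in sos3-2. Suberin and root hair genes stood among those of esb1-1.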

How the results depend on the processing

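None of the 334 named genes turned its direction under any alternative run, and other genes were not followed. More genes were called higher than lower (4461 and 4346), but fewer with DESeq2's size factors (4388 and 4416), DESeq2 (4414 and 4425), limma-voom (4286 and 4477), the 10 CPM filter (2805 and 2999), 2x libraries alone (3499 and 3979), 4x libraries alone (3685 and 4130), the first series of sample numbers (3702 and 4050), without ribosomal RNA and organelle genes (4214 and 4457), without plate 2x replicate 3 (4177 and 4317) and without soil 4x replicate 1 (4370 and 4440). A filter of 10 CPM left 11816 genes, of which 5804 were called and 773 changed 4-fold or more (199 higher and 574 lower). No filter gave 26080 genes and 2289 changes of 4-fold or more (928 higher and 1361 lower). These counts cover different sets of genes, and the part of genes with low counts was not tested. A fit to 86 libraries gave 636 genes higher by 4-fold or more, and the cause was not tested. The interaction with ploidy called 7 genes in DESeq2 and 1 to 2 genes when 1 library was left out, 2 without plate 2x replicate 3 and without plate 4x replicate 1. Upper quartile scaling moved the median of all genes to 0.11 and gave 4996 higher and 4001 lower calls in place of 4461 and 4346. Replicate block and pairing by replicate number gave 8897 called genes and 1304 at 4-fold or more, with 1 named call lost (SEN1). Leaving out 1 library at a time gave 8489 to 9042 called genes and 1254 to 1373 at 4-fold or more. Of 334 named genes, the call was lost in 40 with 2x libraries alone, 29 with 4x libraries alone, 32 within the first series of sample numbers, 23 in the 86-library fit and 15 without the 2 soil libraries with TGG1 reads, an alternative chosen after seeing the data. Within the first series 8 of 30 list medians moved by more than the spread between replicates, and that of the sugar-induced list, with 1 tested gene, changed sign (-0.37). The median of the rapid stress and touch list was -0.31 at the 10 CPM filter and -0.18 in 2x libraries. A level under 0.289 to 0.404 CPM, the floor of 3 counts, was not detectable at this depth.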
